A study of Mus musculus with 6 samples.

Results

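The genes described here are 31 components of the machinery that carries out apoptosis, necroptosis and pyroptosis, picked by name for what their products do. All 31 had a row in the deposited table of 57180 genes, and 26 of them had enough counts to be tested. Expression was measured by RNA sequencing of poly(A)-selected transcripts in GC-1 spg, a mouse line immortalised from type B spermatogonia and labelled as germ cells of the testis. One group of 3 libraries is labelled as overexpressing SNHG1, the host transcript of several small nucleolar RNAs, and the other group of 3 libraries carried the vector control. Both were taken 24 hours after transfection. The labels give non-obstructive azoospermia as the treatment of both groups, and no other agent. They do not say whether the 3 replicates were separate cultures, so p-values here cover the spread between libraries, which may be technical. The sources used here do not say which species' SNHG1 sequence was transfected.

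Library totals ran from 15521900 to 21095427 counts. Snhg1 itself stood at 24.0, 26.4 and 25.3 CPM (counts scaled to library size with TMM factors) in the libraries labelled overexpression and at 22.1, 25.9 and 20.9 CPM in the vector libraries. Those ranges overlapped (log2 fold change 0.14 ± 0.10 SE, edgeR adjusted p = 0.52), so the first group is called the labelled libraries below and each direction is that of the labels. The first principal component (32% of the variance) separated the groups, and labelled replicate 1 stood apart on the second (19.2%), at 28.7 against -9.10 and -13.8 for its 2 partners. Of 11 germ cell markers, 9 had fewer than 10 counts over all libraries, and Ddx4, Zbtb16, Kit and Sall4 had none. Most defining transcripts of the labelled cell type were therefore at or near 0.

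In apoptosis, BH3-only proteins sense damage and release the pore formers Bak and Bax from their anti-apoptotic relatives, and cytochrome c that leaks from mitochondria then assembles Apaf1 and caspase 9 into the apoptosome. Death receptors such as Fas instead recruit Fadd and caspase 8, and when caspase 8 is blocked, Ripk1 and Ripk3 can activate the membrane-disrupting Mlkl, which is necroptosis. In pyroptosis, inflammatory caspases cut gasdermins, whose amino-terminal fragments perforate the plasma membrane. In the testis, germ cell apoptosis is a normal part of spermatogenesis and its balance is set in large part by the Bcl-2 family.

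Casp4 was the only one of the 26 tested members to pass the threshold, and it rose. It encodes the mouse inflammatory caspase, often called caspase-11, that binds bacterial lipopolysaccharide in the cytosol and cleaves gasdermin D. The other 25 had log2 fold changes from -0.65 to 0.30 and edgeR adjusted p from 0.165 to 0.981. That is 1 of 26 members, where 2.4% of 14605 tested genes were called in either direction and 1.54% were called higher. An unadjusted p under 0.05 was found for 7 members, 4 on the higher side (Casp4, Gsdmd, Mlkl and Bak1) and 3 on the lower side (Bcl2l1, Bcl2l11 and Xiap). Over all 14605 tested genes it was found for 2478, of which 1206 were on the higher side and 1272 on the lower side. The members' median log2 fold change was 0.02, beside 0.007 over all tested genes. In bulk RNA, a change in the number of cells of a kind and a change in RNA per cell cannot be told apart, and this holds for every value below.

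For most members the data bounded the difference closely. The 95% interval of the fold change lay inside 1.5-fold in either direction for 21 of the 26 tested members (80.8%, beside 69.3% of all tested genes). The 5 exceptions were Casp4, Bcl2l1, Xiap, Bok and Gsdme. Groups did not overlap for 5 members, Casp4, Gsdmd, Mlkl and Ripk1 on the higher side and Bmf on the lower side, which is 19.2% of those tested, beside 23.7% of all tested genes.

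**Figure D1:**
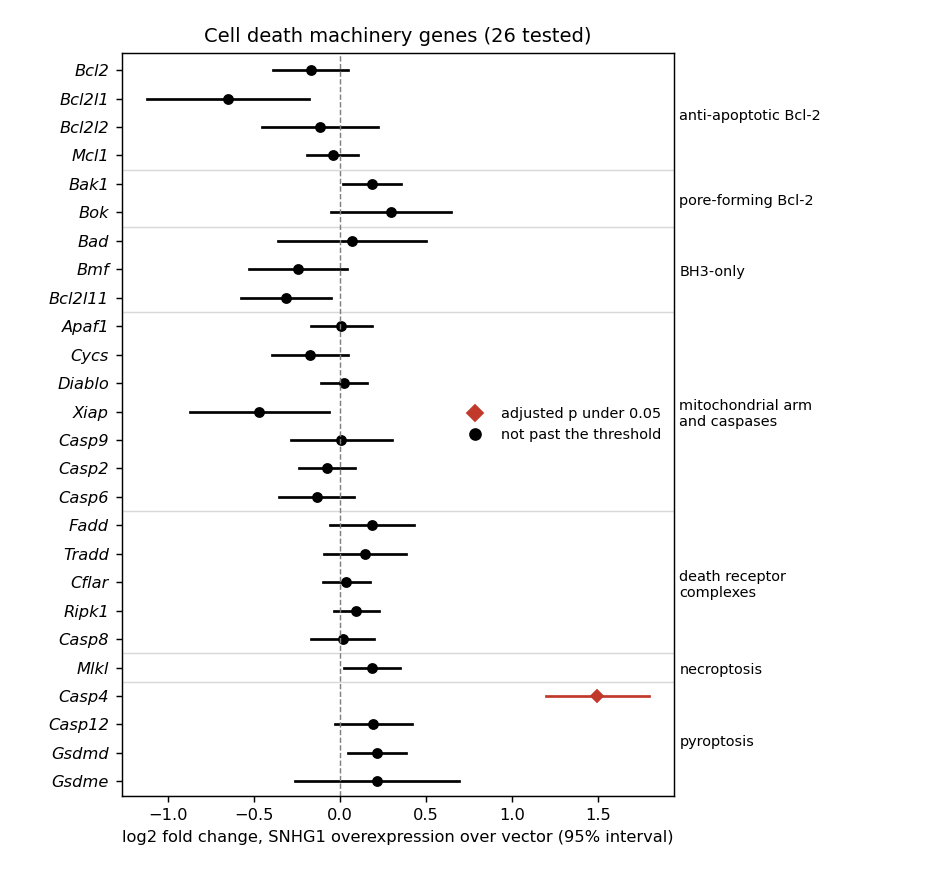
Log2 fold change of each tested member (labelled libraries over vector libraries, 3 per group) with its 95% interval from edgeR, grouped by role. Casp4, at 1.496, is the single red diamond past the threshold of 0.05 on the adjusted p; every black point lies between -0.65 and 0.30.

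Casp4 (ENSMUSG00000033538, protein coding) lies between its relatives Casp1 and Casp12 on chromosome 9, and the bases before its start site are shown beside those of Casp12 because the neighbours differed in their values. As the deposited table gives the positions, on a build the sources used here do not name, Casp1 spans 5298508 to 5307290, Casp4 5308828 to 5336783 and Casp12 5345430 to 5373032. Sequences are from RefSeq on GRCm38.p6, plus strand, 250 bases up to the start site, 5′ to 3′. Casp4 covers chr9:5308599-5308848 (the upstream one of 2 annotated starts) and Casp12 chr9:5345226-5345475. Capitals mark matches to the consensus of NF-kappaB sites (the kappaB consensus, either strand, overlapping matches joined).
Casp4: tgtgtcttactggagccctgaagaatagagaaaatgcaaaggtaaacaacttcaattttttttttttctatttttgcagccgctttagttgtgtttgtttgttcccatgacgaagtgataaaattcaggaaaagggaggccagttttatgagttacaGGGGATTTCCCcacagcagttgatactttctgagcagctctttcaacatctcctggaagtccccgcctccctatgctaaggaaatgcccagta
Casp12: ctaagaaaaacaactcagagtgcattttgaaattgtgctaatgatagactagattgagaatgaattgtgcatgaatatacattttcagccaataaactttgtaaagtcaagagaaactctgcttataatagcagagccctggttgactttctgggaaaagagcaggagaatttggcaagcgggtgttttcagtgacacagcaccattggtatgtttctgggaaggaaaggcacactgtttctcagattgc

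The Casp4 window held the match GGGGATTTCCC from base -93 to base -83 before the start, and the windows of Casp12 and Casp1 held none. Over all genes with such a window, 4.46% of 27025 held the kappaB consensus, as did 2 of 28 members (7.14%), Casp4 and Bcl2l1. The STAT motif TTCNNNGAA (both strands) was in 8.13% of genes and in the windows of Casp12 and Ripk1. The interferon response motif GAAANNGAAA (the ISRE core, both strands) was in 3.46% of genes and in no member's window. RefSeq windows were matched by symbol for 28 of the 31 members. A match describes letters only, and binding was not measured.

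Casp4 stood at 15, 13.1 and 12.8 CPM in the labelled libraries and at 4.29, 4.84 and 5.37 CPM in the vector libraries, from 292, 275 and 247 counts against 90, 75 and 99. Every labelled library was above every vector library, by more than the range within either group. The increase in log2 CPM was 1.496 ± 0.13 (SE, 3 libraries per group), or 2.82-fold with a 95% interval of 2.29 to 3.47 (edgeR, adjusted p = 0.001). It ranked 34th in log2 fold change among the 225 genes called higher. Without labelled replicate 1, the library that stood apart, the log2 fold change was 1.42 (edgeR, adjusted p = 0.00276). Over all 14 alternatives it ran from 1.41 to 1.60, with adjusted p from 7.06e-14 to 0.0111.

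Casp12, an inflammatory caspase linked to the endoplasmic reticulum, stood at 50.1, 41.0 and 41.5 CPM in the labelled libraries and 36.3, 41.4 and 38.4 CPM in the vector libraries. Those ranges overlapped (log2 fold change 0.19 ± 0.10 SE, edgeR adjusted p = 0.35). Casp1, which activates interleukin-1 beta and interleukin-18 in inflammasomes, had 4, 6 and 1 counts against 0, 0 and 2 and was not tested. The ratio of Casp4 to Casp12 within each library, which cancels library scaling, was -1.74, -1.65 and -1.70 on the log2 scale in the labelled libraries and -3.08, -3.10 and -2.84 in the vector libraries. The mean gap was 1.31, given as a description since the pair was chosen with its values known. Of 5 gene ratios computed, 3 had groups that did not overlap: Casp4 to Casp12, Casp4 to Gsdmd (gap 1.28) and Bak1 to Mcl1 (gap 0.23). The ratios to Casp12 and Gsdmd share the Casp4 values, and ratios of other gene pairs were not computed as a background. The ratios of Bcl2l1 to Mcl1 and of Cflar to Casp8 overlapped.

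Gsdmd, the gasdermin that caspase-1 and caspase-11 cleave, had the highest level of the pyroptosis genes. It stood at 73.3, 64.7 and 64.3 CPM in the labelled libraries and 56.5, 60.9 and 56.8 CPM in the vector libraries. The groups did not overlap, but the difference in log2 CPM was 0.22 ± 0.07 (SE, 3 libraries per group) and did not pass (edgeR, adjusted p = 0.189). Its interval ran from 0.05 to 0.38. Gsdme, a gasdermin that apoptotic caspases can cleave, was the lowest of the tested members, at 2.42 to 2.70 CPM against 1.87 to 2.81 CPM, with overlapping groups and an interval of -0.26 to 0.69. The Gsdme row overlaps Pals2, which had 3771 counts to the 279 of Gsdme, and how reads were shared is not given.

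As shares of the summed FPKM (fragments scaled by gene length and library total, the authors' values) of the 5 pyroptosis genes, Casp4 took 10.6, 10.7 and 10.5% in the labelled libraries and 4.30, 4.43 and 5.23% in the vector libraries. Gsdmd took 59.5 to 60.9% against 63.4 to 65.0%, and Casp12 27.6 to 29.1% against 29.8 to 31.1%. A higher Casp4 share lowers the other shares by construction, and the log2 fold changes of Gsdmd and Casp12 were 0.22 and 0.19. Casp1 stayed at or under 0.19% in all 6.

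Markers of macrophages, which express inflammatory caspases, were also summed. The 11 macrophage and leukocyte markers together stood at 42.2 to 48.5 CPM in the labelled libraries and 33.9 to 34.8 CPM in the vector libraries. Of the 4 that could be tested only Cd14, a lipopolysaccharide co-receptor, passed, at a log2 fold change of 0.76 (edgeR, adjusted p = 0.00728). Without Cd14, the other 10 stood at 20.1 to 22.4 CPM against 19.0 to 21.1 CPM, so the groups overlapped, and most of that sum was Lyz2, at 14.5 to 16.7 CPM in both groups. Cd68, a lysosomal protein of macrophages, stood at 3.70, 3.75 and 4.05 CPM against 2.52, 2.71 and 2.17 CPM, without overlap (log2 fold change 0.64, edgeR adjusted p = 0.0904). Csf1r, also tested, was lower without overlap, at 1.03, 0.95 and 1.14 CPM against 1.43, 1.355 and 1.52 CPM. Its log2 fold change was -0.47 (edgeR, adjusted p = 0.319). Adgre1, with too few counts to test, was also lower, at 5, 3 and 2 counts against 6, 7 and 5. The part of other cells in the Casp4 value was not tested. Tyrobp had 0 counts in every library and Ptprc, the leukocyte antigen CD45, 2 to 9 counts.

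**Figure D2:**
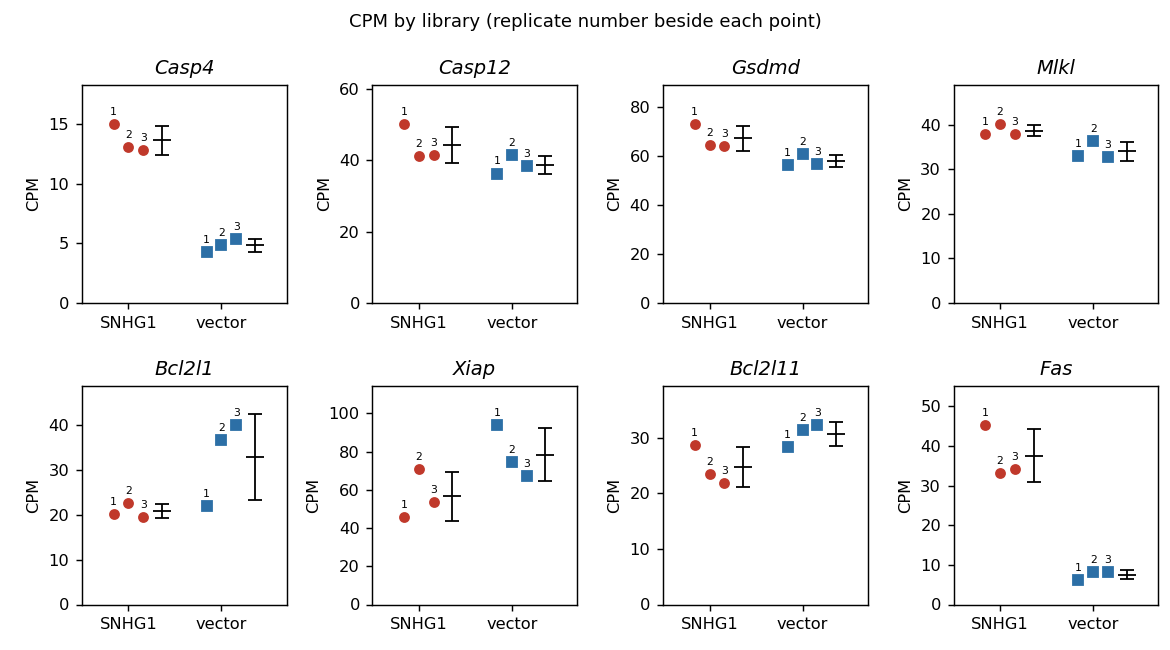
CPM of 7 members and of the death receptor gene Fas in each library (red circles, labelled SNHG1 overexpression; blue squares, vector; numbers are replicates; bars are mean and SD of 3 libraries; axes start at 0). Casp4 and Fas separate widely, Gsdmd and Mlkl narrowly, and the vector values of Bcl2l1 split with replicate 1 at 22.0 CPM and the others at 36.7 and 40.0.

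The necroptosis genes did not pass. Mlkl, the pseudokinase that disrupts the plasma membrane once phosphorylated, stood at 37.9, 40.1 and 37.9 CPM in the labelled libraries and 32.9, 36.3 and 32.7 CPM in the vector libraries. The groups did not overlap, with a log2 fold change of 0.19 ± 0.07 (SE, n = 3 per group; edgeR, adjusted p = 0.242). Ripk3, the kinase that phosphorylates it, had 2 counts in labelled replicate 2 and 0 in the other 5 libraries. At 0 counts the upper limit is 3 counts, or 0.142 to 0.193 CPM in these libraries, for counting error only. The executioner was thus well measured while its kinase was at the limit of detection in both groups.

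No gene of the death receptor complexes passed. All 5 were tested, with log2 fold changes from 0.02 to 0.18 and intervals that all lay within 1.5-fold. Casp8, the initiator protease of this arm and the member of the 5 with the highest FPKM, stood at 41.0, 48.3 and 48.2 CPM in the labelled libraries and 45.2, 46.6 and 44.2 CPM in the vector libraries. The vector values lay inside the labelled range (0.02 ± 0.08 log2, SE; edgeR adjusted p = 0.936). Fadd, the adaptor that joins caspase 8 to Fas, stood at 23.5, 24.9 and 30.1 CPM against 23.5, 22.1 and 23.4 CPM, with only labelled replicate 3 well above the rest (0.18 ± 0.11 log2, SE; edgeR adjusted p = 0.41).

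Cflar encodes c-FLIP, the caspase 8 relative that restrains it, and lies near Casp8 on chromosome 1 (58750667 to 58798043 and 58834533 to 58886662 in the table). It stood at 75.7 to 81.9 CPM against 74.3 to 79.6 CPM. The log2 ratio of Cflar to Casp8 averaged 0.78 in the labelled group and 0.75 in the vector group, with overlap. Ripk1, the kinase that directs this complex to survival or death, stood at 86.6 to 89.8 CPM against 78.2 to 84.2 CPM, without overlap (0.10 ± 0.06 log2, SE; edgeR adjusted p = 0.419). The Ripk1 row overlaps Serpinb6a, which had 20600 counts to the 9754 of Ripk1, and how reads were shared is not given. Tradd, the adaptor of the TNF receptor, stood at 23.6 to 25.1 CPM against 19.0 to 23.8 CPM, with overlap.

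Among the 4 anti-apoptotic Bcl-2 genes none passed edgeR, and all 4 log2 fold changes were below 0. So were those of 7117 of the 14605 tested genes, and the signs of Mcl1 and Bcl2l2 each changed in 1 of 14 alternatives. Mcl1, whose short-lived product holds Bak and BH3-only proteins in check, was the most abundant of all 31 members. It stood at 103, 94.2 and 90.6 FPKM in the labelled libraries and 96.3, 98.0 and 102 FPKM in the vector libraries. That was 90.5 to 92.1% of the summed FPKM of the 4 genes in the labelled group and 89.7 to 90.9% in the vector group. Dividing CPM by the longest GENCODE M21 transcript in place of the authors' length gave 82.1 to 84.8% against 79.8 to 80.7%. Its log2 fold change was -0.04 ± 0.06 (SE), with an interval of -0.19 to 0.10 (edgeR, adjusted p = 0.765).

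Bcl2l1, which encodes Bcl-xL, had the lowest log2 fold change of the members. It stood at 20.2, 22.7 and 19.6 CPM in the labelled libraries and at 22.0, 36.7 and 40.0 CPM in the vector libraries. Vector replicate 1 sat inside the labelled range while the others were well above it. The difference was -0.65 ± 0.20 (log2, SE, n = 3 per group; edgeR, adjusted p = 0.165). Without vector replicate 1 it was -0.88 and passed (edgeR, adjusted p = 0.0138), and with all libraries it also passed DESeq2 at -0.65 (adjusted p = 0.02). Its adjusted p ran up to 0.375 over the alternatives.

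Bcl2, the founding member, stood at 23.2 to 25.5 CPM against 24.7 to 30.1 CPM, and Bcl2l2, which encodes Bcl-w, at 39.4 to 45.7 CPM against 37.8 to 56.7 CPM. Both groups overlapped in each case (edgeR, adjusted p = 0.398 and 0.725). The Bcl2l2 row overlaps Gm20521, another protein-coding row with 987 counts, and the sources used here do not say how reads were shared between them.

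The pore formers Bak1 and Bok had log2 fold changes of 0.19 ± 0.07 and 0.30 ± 0.15 (SE) and did not pass (edgeR, adjusted p = 0.252 and 0.354). Bak1 was the second most abundant member in FPKM. It stood at 118, 124 and 110 CPM in the labelled libraries and 98.4, 99.9 and 112 CPM in the vector libraries, where only vector replicate 3 reached the labelled range. Bok, a relative that acts largely without Bak and Bax, stood at 22.0, 21.1 and 23.1 CPM against 15.6, 22.7 and 15.6 CPM. Vector replicate 2 alone lay within the labelled range.

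Of the 6 BH3-only genes, 3 were measurable and 3 were at or near 0. Bcl2l11, which encodes Bim, stood at 28.7, 23.5 and 21.8 CPM in the labelled libraries and 28.3, 31.5 and 32.2 CPM in the vector libraries. Labelled replicate 1 lay just above vector replicate 1, and the other labelled values were below all vector values (-0.31 ± 0.11 log2, SE; edgeR adjusted p = 0.222). Without labelled replicate 1 the difference was -0.44 and passed (edgeR, adjusted p = 0.0445), while the other alternatives reached up to 0.479. Bad, the sensitiser controlled by survival kinases, stood at 19.7, 26.8 and 23.8 CPM against 16.4, 24.4 and 26.4 CPM, with replicate 1 the lowest of both groups (0.07 ± 0.19 log2, SE; edgeR adjusted p = 0.88). Its row overlaps Gpr137, which had 3412 counts to the 2615 of Bad.

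Bmf, released from the cytoskeleton under stress, stood at 8.03 to 10.4 CPM against 10.5 to 10.9 CPM. The groups just failed to overlap, and the difference did not pass (-0.24 ± 0.12 log2, SE; edgeR adjusted p = 0.356). Bik and Hrk had 0 counts in all 6 libraries. Bid, the substrate through which caspase 8 reaches the mitochondria, had 2, 2 and 0 counts in the labelled libraries and 2, 0 and 0 in the vector libraries, and Bcl2l13, whose row overlaps it, had 8305 over all libraries. Whether reads of Bid were counted elsewhere cannot be seen in the table, so its low count is a property of these values.

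No gene of the mitochondrial arm and the other apoptotic caspases passed, in a range of log2 fold changes from -0.47 to 0.02 over 7 members. Xiap, a direct inhibitor of apoptotic caspases, stood at 45.6, 70.8 and 53.5 CPM in the labelled libraries and 93.7, 74.3 and 67.1 CPM in the vector libraries. Labelled replicate 2 exceeded vector replicate 3, so the groups overlapped (-0.47 ± 0.18 log2, SE; edgeR adjusted p = 0.23). With trends of the libraries in GC content and transcript length removed, an alternative chosen after seeing the data, the difference was -0.27 (edgeR, adjusted p = 0.558). Diablo, the mitochondrial antagonist of Xiap and the member of the 7 with the highest FPKM, stood at 64.1, 65.2 and 69.5 CPM against 65.4, 63.5 and 66.5 CPM. Its interval of -0.11 to 0.16 was among the narrowest (edgeR, adjusted p = 0.86).

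Apaf1, the scaffold of the apoptosome, stood at 35.1 to 37.7 CPM in the labelled group and 33.9 to 38.9 CPM in the vector group. Casp9, the protease it activates, stood at 22.5 to 30.1 CPM against 22.7 to 27.5 CPM. Both had a log2 fold change of 0.01 and groups that overlapped (edgeR, adjusted p = 0.97 and 0.981). Cycs, somatic cytochrome c, stood at 16.9 to 18.2 CPM against 17.9 to 21.3 CPM. Casp2, activated by the PIDDosome after DNA damage or cytokinesis failure, and the executioner Casp6 stood at 32.7 to 35.96 and 20.4 to 24.5 CPM against 34.6 to 37.6 and 23.3 to 25.6 CPM. All 3 missed the threshold (edgeR, adjusted p = 0.397 for Cycs, 0.614 for Casp2 and 0.505 for Casp6).

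**Figure D3:**
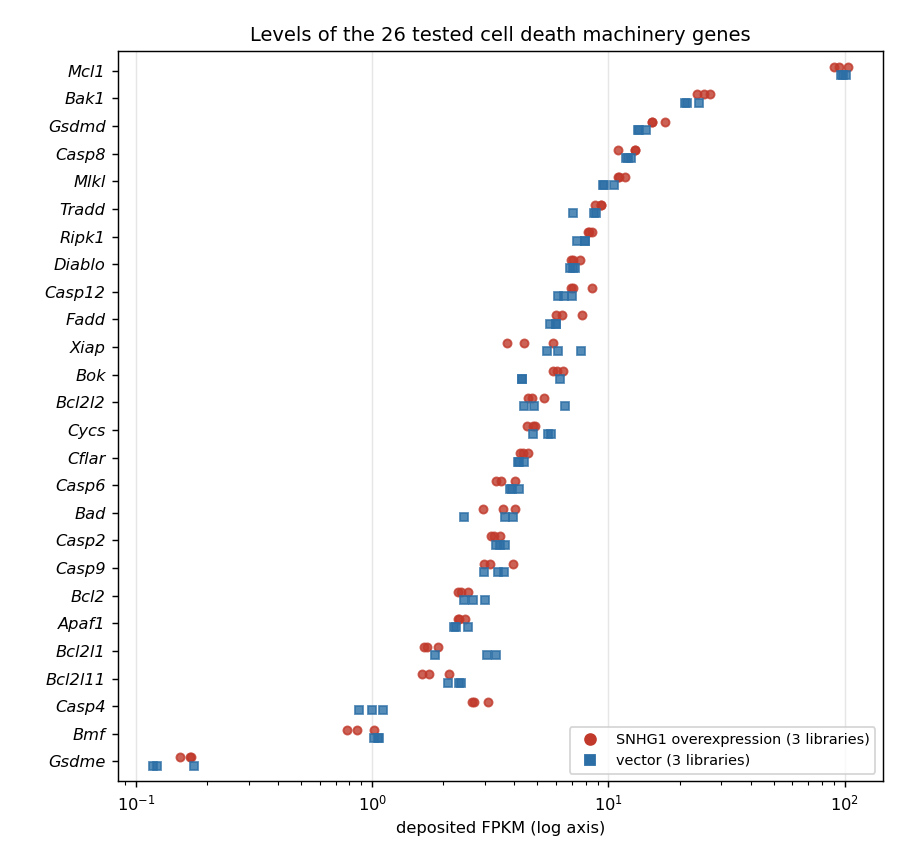
Deposited FPKM of the 26 tested members in each library on a log axis, ordered by their mean (red circles, labelled SNHG1 overexpression; blue squares, vector). Mcl1 is near 100 FPKM in all libraries, Bak1 and Gsdmd follow, and Casp4 shows the one wide gap between the colours.

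Levels between members can be compared only per length. By mean FPKM the order was led by Mcl1 (97.3), Bak1 (23.8), Gsdmd (14.8), Casp8 (12.2) and Mlkl (10.6), and closed among tested members by Casp4 (1.90), Bmf (0.969) and Gsdme (0.152). Over the 6 libraries the ranges of Mcl1, Bak1, Gsdmd and Casp8 stayed apart, as did those of Mlkl and Tradd. Casp8 and Mlkl overlapped, and from Tradd down to Bmf each member overlapped the next in the order. The length the authors divided by, which the counts and FPKM imply, was 1.0 to 4.64 times the longest GENCODE M21 transcript of the member (median 2.21), and for Bcl2l2 and Ripk3 it exceeded the span of the gene. On CPM per kilobase of that transcript Mcl1, Bak1 and Gsdmd kept ranks 1 to 3, while Bcl2l1 moved from rank 22 to 14 and Bad from 17 to 8. Fold changes between groups do not depend on this length.

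Among 45 other cell death genes, listed by function, 28 were tested and 5 rose, while 0 fell. Of all tested genes, 2.4% were called and 1.54% were called higher. The lists were chosen with earlier results of these data known, so these counts are a description and not a test. Another 14 of the 45 had fewer than 10 counts in all. The genes that rose were 4 of 12 tested genes of the death receptors and their regulators (Fas, Tnfaip3, Traf2 and Tnfrsf1a) and 1 of 5 tested genes feeding lytic death (Zbp1). None of 11 tested genes of the mitochondrial arm and execution passed. The median log2 fold change was 0.12, beside 0.007 over all tested genes.

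Fas, the death receptor whose adaptor and protease are members above, stood at 45.2, 33.2 and 34.3 CPM in the labelled libraries and 6.24, 8.26 and 8.14 CPM in the vector libraries. It rose by 2.32 ± 0.16 (log2, SE, n = 3 per group), or 4.99-fold (edgeR, adjusted p = 0.000304). Its ligand Fasl had 1 count in 1 vector library. Zbp1, the nucleic acid sensor that can engage Ripk3, stood at 39.8, 37.9 and 31.6 CPM against 15.4, 16.3 and 14.8 CPM and rose by 1.23 ± 0.10 (log2, SE; edgeR, adjusted p = 0.000867). Both separated the groups widely, while Fadd, Casp8 and Mlkl downstream of them had intervals within 1.5-fold. Of these, Mlkl did not pass, but its interval of 0.02 to 0.35 lay above 0 and its groups did not overlap. Ripk3, between Zbp1 and Mlkl, had 2 counts in total.

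Tnfaip3, which encodes the ubiquitin editor A20, stood at 20.1, 15.3 and 14.95 CPM against 8.004, 7.03 and 9.01 CPM and rose by 1.06 ± 0.15 (log2, SE; edgeR, adjusted p = 0.0139). Its call was lost without vector replicate 1 or 2 (edgeR, adjusted p = 0.067 and 0.0607). Traf2, the adaptor that brings inhibitor-of-apoptosis ligases to the TNF receptor, rose by 0.67 ± 0.08 (log2, SE; edgeR, adjusted p = 0.00687). The TNF receptor gene Tnfrsf1a rose by 0.35 ± 0.06 (log2, SE; edgeR, adjusted p = 0.0321), a call that 7 of 14 alternatives lost, with adjusted p from 0.000991 to 0.123. One of those was the fit with the replicate number as a block (adjusted p = 0.102).

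The 23 tested genes that did not pass ran from -0.17 to 0.71 on the log2 scale. Birc3, the inhibitor-of-apoptosis ligase cIAP2, was at 0.71 ± 0.21 (SE; edgeR adjusted p = 0.143), and Bbc3, which encodes the BH3-only protein Puma, at 0.32 ± 0.07 (SE; edgeR adjusted p = 0.0626), both without overlap of the groups. The pore former Bax was at 0.24 ± 0.09 (log2, SE; edgeR adjusted p = 0.212), with overlap. Ninj1, of the lytic list, was at 0.38 ± 0.13 (log2, SE, edgeR adjusted p = 0.182), also with overlap. On the lower side, Cyld was at -0.17 ± 0.07 and Ticam1 at -0.15 ± 0.07 (log2, SE, edgeR adjusted p = 0.252 and 0.346), both without overlap. Groups did not overlap for 11 of the 28 tested genes (39.3%, beside 23.7% of all tested genes). Of these, 8 were higher and 3 lower. On the side of the inflammasome, Pycard, Nlrc4, Mefv and Il1b had 0 counts in all libraries, and Nlrp3 and Aim2 had 4 and 3 in total. Nlrp1b had 77 counts in total and was tested, at 0.12 ± 0.45 (log2, SE, edgeR adjusted p = 0.916), with overlap. Nlrp1a had 22 counts in total and was not tested. Il18 was measured, at 10.9 to 14.4 CPM over all libraries.

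**Figure D4:**
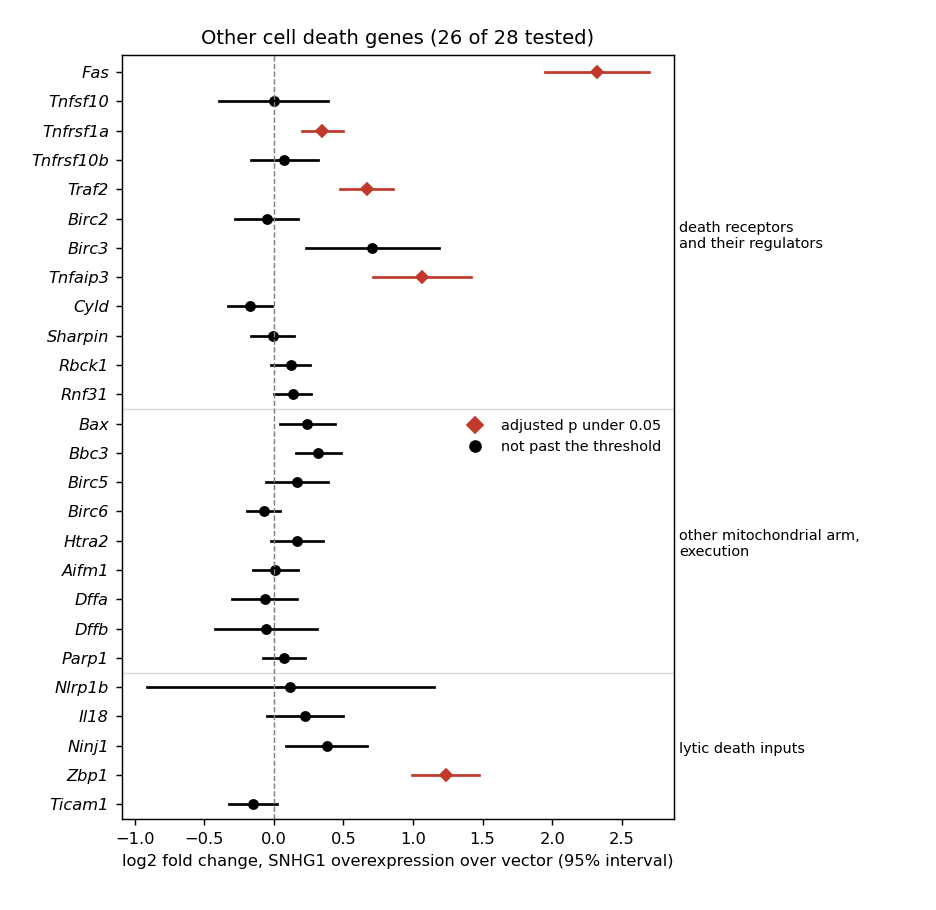
Log2 fold change with its 95% interval (edgeR, 3 libraries per group) for 26 of the 28 tested other cell death genes, in 3 functional lists. The 5 red diamonds past the threshold are Fas at 2.32, Zbp1 at 1.23, Tnfaip3 at 1.06, Traf2 at 0.67 and Tnfrsf1a at 0.35; every gene shown of the mitochondrial list is a black point.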

How the data were processed

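The authors deposited 1 table with whole-number counts and FPKM values per gene and library. Tools named, per the submitters' processing notes, are HISAT2, StringTie and SAMtools 1.3.1, with GRCh38, a human build, although rows are mouse Ensembl genes. How reads were counted, with which strand setting and on which coordinate build: not given in the sources used here. Rows lacking a symbol (525) took 0.194% of counts. Groups came from sample titles. Counts were tested with the quasi-likelihood test of edgeR 4.0.16 in R 4.3.3 (TMM, default filterByExpr, group as the only term, Benjamini-Hochberg adjustment over all 14605 tested genes at 0.05); the standard error is the log2 fold change over the square root of F. Total counts of 15521900 to 21095427 make 1 count 0.0474 to 0.0644 CPM. Alternatives were DESeq2 1.42.0, limma 3.58.1 (voom), other scalings and filters, a replicate block, each library left out, and removal of GC and length trends, added after seeing the data. The pipeline was tested on simulated data. The members and lists were chosen with earlier results of these data known. By rule, values per library are given for members past the threshold. In each of the 7 role lists they are also given for the tested member with the lowest p and the one with the highest FPKM. Every pathway gene past the threshold is named. Casp12, Bok, Birc3, Bbc3, Bax, Ninj1, Cyld, Ticam1, Nlrp1a and Nlrp1b and genes at or near 0 were chosen after their values were seen. Of the tested pathway genes 2 are counted but not reported here by name.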

Additional observations from a re-analysis of the deposited data

How the results depend on the processing

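Casp4 passed in all 14 alternatives. The count of 1 called member was 2 with DESeq2, which added Bcl2l1, and 1 to 2 with 1 library left out: without labelled replicate 1 Bcl2l11 and without vector replicate 1 Bcl2l1 also passed. The 5 called pathway genes became 3 to 6 with 1 library left out, the lowest without vector replicate 1 or 2. Over all genes, 350 calls became 691 with DESeq2 and 123 to 807 with 1 library left out (807, 162 and 176 without labelled replicates 1, 2 and 3, and 123, 151 and 143 without vector replicates 1, 2 and 3); the cause was not tested. Deviations from the group mean correlated at 0.0422, -0.18 and -0.068 for same-numbered libraries over 8223 genes, and at -0.0892 to 0.163 for differently numbered ones. Whether the cultures were paired is not given in the labels, and these values cannot show it. The replicate block left 1 member, 4 pathway genes and 163 genes in all.

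Of 364 values of tested members under the alternatives, 16 changed sign, all of 7 members below the threshold. With 1 library left out the log2 fold change ran from -0.235 to 0.078 for Bcl2l2, -0.101 to 0.002 for Mcl1, -0.118 to 0.204 for Bad, -0.035 to 0.066 for Apaf1, -0.008 to 0.047 for Diablo, -0.128 to 0.093 for Casp9 and -0.024 to 0.089 for Casp8. With GC and length trends removed Bad was at -0.034, Diablo at -0.021 and Casp9 at -0.046. Bid, Bik, Hrk, Ripk3 and Casp1 had 0 to 13 counts in all, too few at this depth to test; the cause of their low counts was not tested.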

Other observations

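The share of members with a wide range among replicates was not above that of all tested genes in either group. A range of over 1.3-fold among 3 libraries was found for 6 of 26 tested members in the vector group (Bcl2l1, Bad, Bcl2l2, Gsdme, Bok and Xiap) and for 4 in the labelled group (Xiap, Bad, Casp9 and Bcl2l11), beside 26.2% and 30.8% of all tested genes. Vector replicate 1 had the lowest Bcl2l1 and Bad of its group, at 22.0 and 16.4 CPM, and the highest Bcl2l2 and Xiap, at 56.7 and 93.7 CPM. Labelled replicate 1 had the lowest Xiap, at 45.6 CPM, and the highest Casp9, at 30.1 CPM. Bcl2l1 and Xiap are thus the members with the largest differences between groups below the threshold and also among those with the widest spread within a group.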
